A study of Mus musculus with 6 samples.

Results

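Macrophages take up debris, microbes and lipids in every tissue, and 38 genes that serve or mark them were followed in the mouse ventral prostate: the lysozymes Lyz1 and Lyz2, the complement genes C1qa, C1qb, C1qc, C3 and C3ar1, the Trem2-Tyrobp and Fc receptors, Csf1 and its receptor Csf1r, and surface, adhesion and enzyme genes of macrophages and leukocytes. The genes were picked out on the array by a list of symbols. They are 38 of 19100 genes with a symbol on the array and are read by 59 of its 41174 probes. Every gene had a probe, and 37 were found by the name on the array or through its accession. Clec7a was found through an older name listed for it in the reference gene table. Each gene is described by its brightest probe, the probe with the highest mean signal over both colours and all 6 arrays, and dimmer probes are given for some genes. In fl26, 13 dimmer probes of 11 genes were tested, and 3 of them, 1 of Lcp1 and 2 of Csf1r, had a sign other than that of the brightest probe. For 35 of the 38 genes this probe stood well above background and was tested, among 15404 genes tested that way in the whole data set. Msr1, Spi1 and Vsig4 were not well above background on any array and are given no comparison.

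Each array compared the ventral prostate RNA of 1 group, in red (Cy5), with that of young wild type FVB mice aged 2.5 months, in green (Cy3). The red groups, with 2 arrays each, were fl26 (a line transgenic for 15-LOX2, a lipoxygenase that oxidizes arachidonic acid, 2.5 months), svb9 (a line transgenic for the 15-LOX2 splice variant b, 2.5 months) and old wild type (15 months), all on the FVB background. Each transgene is represented by 1 line, and the promoter that drives it is not given in the sources used here. Each sample was a pool of prostates: the sample labels give 3 mice per pool, the design text gives 6, and the same text calls the 2 arrays of a group biological replicates. The dyes were not swapped, so that against young wild type a group and its dye cannot be told apart. Red groups share their dye, which drops out when they are compared with each other. Values are log2 ratios of the red group over young wild type, so that 1 means a doubling and 0 means no difference.

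As background, lysozyme is an enzyme that splits bacterial cell walls. Lyz2 is the lysozyme of macrophages and other myeloid cells, and Lyz1 is its neighbouring copy, best known from Paneth cells of the gut. Complement is a cascade of secreted proteins in which C1q binds its targets, C3 is cleaved, and the fragment C3a signals through the receptor C3ar1; C1q in tissues comes largely from macrophages, whereas C3 is also made by epithelial cells. Macrophages depend on Csf1 acting through Csf1r and on the transcription factor PU.1, the product of Spi1, and Trem2 is a lipid-sensing receptor that signals through the adaptor Tyrobp. In the prostate, macrophages lie in the stroma between the glands and within the epithelium.

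Promoter sequences are shown for the lysozyme pair, which are neighbouring copies, and for Trem2 and C1qb, which hold the core motif bound by PU.1. They are the 250 bases before the start site, 5′ to 3′ on the gene's strand, from RefSeq on build GRCm38.p6. In the lysozyme sequences the capitals mark the longest run that both genes share at the same distance from the start site. In the Trem2 and C1qb sequences they mark the motif GAGGAA or its reverse complement TTCCTC.
Lyz1, chr10:117292869-117293118, minus strand: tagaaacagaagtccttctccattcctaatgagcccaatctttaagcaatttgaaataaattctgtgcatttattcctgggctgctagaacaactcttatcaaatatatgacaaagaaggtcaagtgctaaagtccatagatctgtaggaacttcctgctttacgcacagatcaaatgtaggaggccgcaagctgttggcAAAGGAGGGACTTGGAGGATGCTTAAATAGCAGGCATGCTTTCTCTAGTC
Lyz2, chr10:117282273-117282522, minus strand: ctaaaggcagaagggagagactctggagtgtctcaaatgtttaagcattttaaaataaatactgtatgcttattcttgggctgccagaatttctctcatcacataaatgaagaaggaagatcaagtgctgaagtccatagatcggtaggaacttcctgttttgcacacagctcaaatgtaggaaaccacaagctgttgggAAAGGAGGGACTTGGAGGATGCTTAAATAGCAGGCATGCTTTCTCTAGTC
Trem2, chr17:48346151-48346400, plus strand: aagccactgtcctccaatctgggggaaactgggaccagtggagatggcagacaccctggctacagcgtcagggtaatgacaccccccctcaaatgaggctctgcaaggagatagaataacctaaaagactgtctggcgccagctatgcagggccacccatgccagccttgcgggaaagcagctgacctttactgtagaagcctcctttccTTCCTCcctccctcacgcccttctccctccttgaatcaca
C1qb, chr4:136886201-136886450, minus strand: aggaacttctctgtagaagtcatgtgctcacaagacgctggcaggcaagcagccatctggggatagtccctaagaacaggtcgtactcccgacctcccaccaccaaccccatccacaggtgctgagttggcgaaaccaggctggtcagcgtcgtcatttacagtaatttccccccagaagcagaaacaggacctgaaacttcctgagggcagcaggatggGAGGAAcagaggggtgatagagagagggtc

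The lysozyme promoters matched at 152 of 250 positions (60.8%), and the last 50 bases, positions -50 to -1 from the start site, were identical. The 2 genes are neighbours on chromosome 10 in the reference annotation. Bases before the start site are not part of the transcript, so this likeness does not show whether the lysozyme probes can be read apart. The files give no probe sequences, so that how far a probe of one lysozyme also reads the other is unknown, and both are reported as uncertain in this respect. The promoter table held 30 of the 38 genes. Over its windows of 300 bases, which also take in the first 50 bases after the start site, the motif GAGGAA was searched on both strands. It was present in a promoter of 17 of these 30 genes (56.7%), and over all promoters in the table in 8446 of 27025 genes (31.3%). The match at position -40 of Trem2 was on the opposite strand and that at -30 of C1qb on the gene's own strand. A match is a description of the letters and not a measured binding site. Lyz1, Lyz2 and C3 held no match in this window.

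The arrays differed in signal. In red, 27151 and 17623 probes stood well above background on the fl26 arrays 1 and 2, 27833 and 14620 on the svb9 arrays, and only 3219 and 13600 on the old wild type arrays. The green channel, with its young wild type RNA, had 24837 to 30382 such probes. Markers of the ventral prostate epithelium (Sbp, Pbsn, Krt8, Krt18, Hoxb13) stood well above background in both colours on all 6 arrays. All 13 genes used as macrophage markers stood well above background in green on all 6 arrays, by their brightest probe. Among them were Adgre1, Csf1r, Cd68 and C1qa, but also Ptprc and Cd53, which are genes of leukocytes at large. A second Adgre1 probe was not well above background in either colour on any array. Spi1, Msr1 and Vsig4, which are also macrophage genes, were well above background in green on no array. None of the 59 probes was saturated. In red, 24 of the 38 genes were well above background on both fl26 arrays, 17 on both svb9 arrays and 2 (Lyz2 and C3) on both old wild type arrays. A further 14 were so on 1 old wild type array and 22 on none. The arrays hold tissue RNA, in which fewer macrophages and less RNA per macrophage cannot be told apart.

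In the fl26 prostate the lysozymes, C3, Lgals3 and Trem2 had the highest ratios of the set, although no gene of it passed the test. Of the 35 tested genes, 31 had a mean log2 ratio above 0, against 50.3% of all genes, and their median was 0.16 against 0.00 over all genes. None passed an adjusted p of 0.05, which 0.0584% of all genes did (9 of 15404). The smallest adjusted p was 0.167 (limma, Benjamini-Hochberg over all tested probes). At an unadjusted p under 0.05 there were 8 genes, each with a ratio above 0, against 12.3% of all genes in either direction. The arrays differed: on array 1, 34 of 35 genes were above 0, with a median of 0.24, and on array 2 it was 20 of 35, with a median of 0.05. On both arrays 19 genes were above 0, against 28.1% of all genes, and none was below 0 on both, against 26.2%. The 15 genes above 0 on array 1 alone included Adgre1, Cd163, Mrc1, Csf1, Ctss and C1qa. On array 2 the red signal of 11 of the 35 genes, Cd163 among them, was not well above background. Laptm5 was the gene above 0 on array 2 alone.

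**Figure D1:**
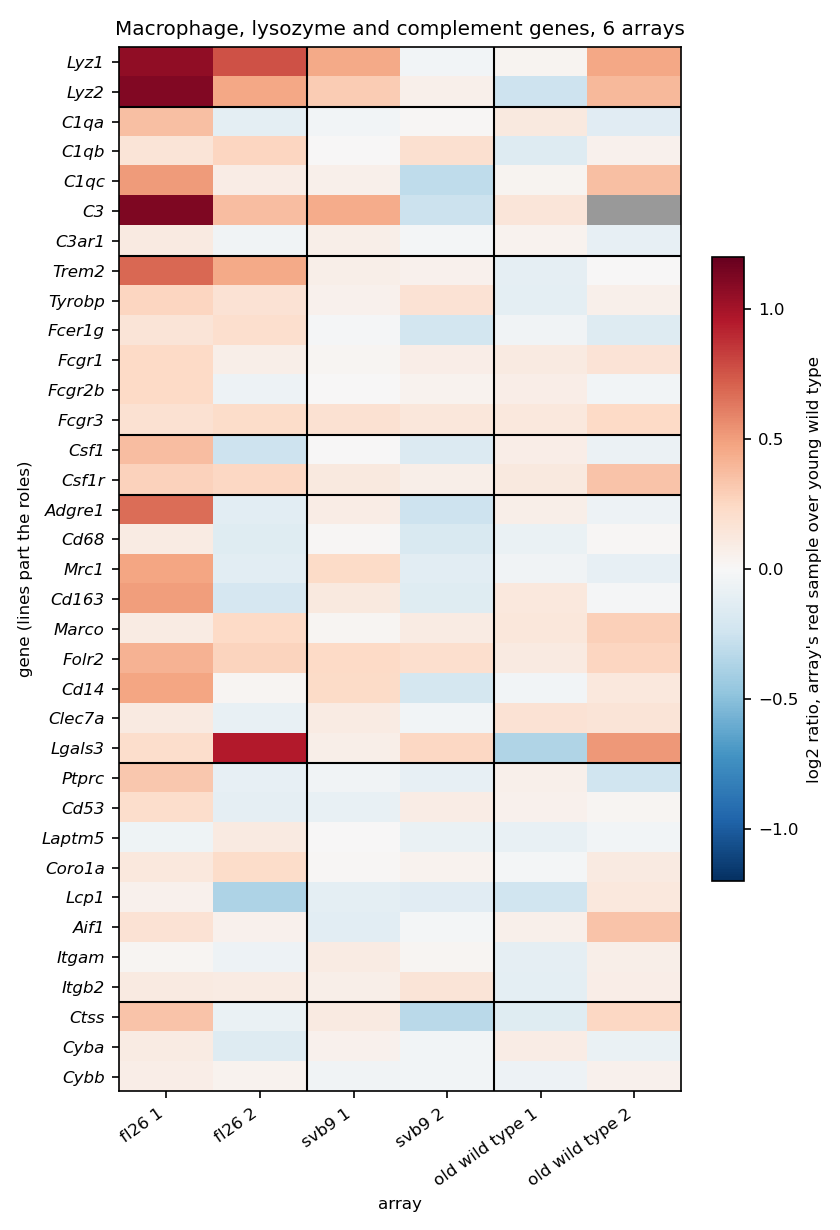
Heat map of the log2 ratio to young wild type (colour, red above 0 and blue below) for the 35 tested genes (rows, ordered by role) on the 6 arrays (columns). Lyz1, Lyz2, C3 and Trem2 are red in both fl26 columns, 15 genes are above 0 on fl26 array 1 only, and the grey field is C3 on old wild type array 2, an outlier spot that was left out.

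The lysozymes had the highest ratios. Lyz1 read 1.06 and 0.77 on the fl26 arrays, 0.46 and -0.03 on the svb9 arrays and 0.04 and 0.46 on the old wild type arrays. Both fl26 arrays lay above all 4 others. The fl26 mean was 0.91 (SE 0.16, n = 2 arrays), a 1.88-fold level, with an unadjusted p of 0.000998 and an adjusted p of 0.212. Lyz2 read 1.11 and 0.47 in fl26, 0.30 and 0.06 in svb9 and -0.25 and 0.39 in old wild type. Again both fl26 arrays were above the other groups, but array 2 only by a little. Its mean was 0.79 (SE 0.20), or 1.73-fold, with an adjusted p of 0.308. With the extraction date as a term of the fit, this mean was 0.85 with an adjusted p of 0.0419. Over all settings tried the adjusted p of Lyz2 ran from 0.0419 to 0.9998. A second, dimmer probe of Lyz2 read 0.43 and 0.04 on the fl26 arrays. In log2 signal, which has no unit, the brightest Lyz2 probe read 10.95 and 10.83 in red on the fl26 arrays and 9.84 and 10.36 in green on the same arrays. In green over all 6 arrays it ranged from 9.84 to 11.24, a wider span than the fl26 ratio. A shift that both colours of an array share drops out of its ratio. The highest green value was that of old wild type array 2, where red read 11.63. On the svb9 arrays green read 9.88 and 10.54. By extraction date, green read 9.84 and 9.88, then 10.36 and 10.42, then 10.54 and 11.24. Whether this span came from the young wild type pools or from the arrays was not tested.

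Complement genes were unequal. C3, the protein on which all routes of complement activation meet, read 1.12 and 0.37 on the fl26 arrays, 0.45 and -0.26 on the svb9 arrays and 0.14 on old wild type array 1. Its spot on old wild type array 2 was an outlier and was left out, so that n is 1 there. The first fl26 array was far above the rest, and the second lay within the range of the svb9 arrays. The mean in fl26 was 0.74 (SE 0.24), or 1.67-fold, with an adjusted p of 0.412, and it was 0.37 without array 1. A second C3 probe was not well above background. C1qc, 1 of the 3 chains of C1q, read 0.51 and 0.09 in fl26, 0.06 and -0.31 in svb9 and 0.03 and 0.36 in old wild type. C1qb read 0.16 and 0.25 in fl26, 0.01 and 0.20 in svb9 and -0.16 and 0.05 in old wild type. C1qa read 0.36 and -0.11 in fl26, -0.04 and 0.01 in svb9 and 0.11 and -0.13 in old wild type. The 3 chains are made together and are neighbours in the reference annotation, yet their order on fl26 array 1 was not that on array 2, and for most pairs of groups the arrays overlapped. Both fl26 arrays lay above both svb9 arrays for C1qc and above both old wild type arrays for C1qb. The fl26 means were 0.30 (SE 0.15), 0.21 (SE 0.09) and 0.12 (SE 0.13) for C1qc, C1qb and C1qa, with adjusted p values of 0.551, 0.511 and 0.790. C3ar1, the C3a receptor, read 0.11 and -0.04 in fl26, 0.07 and -0.03 in svb9 and 0.04 and -0.10 in old wild type, and its fl26 mean was 0.04 (SE 0.08, adjusted p = 0.920).

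Trem2 differed less between the 2 fl26 arrays than Lyz1, Lyz2 or C3 did. It read 0.69 and 0.46 on the fl26 arrays, 0.07 and 0.05 on the svb9 arrays and -0.11 and 0.01 on the old wild type arrays. Both fl26 arrays stood well clear of the other 4, which lay close to 0 but came partly from a dim channel. In red, Trem2 was well above background on both fl26 arrays, 1 svb9 array and neither old wild type array. Its fl26 mean was 0.57 (SE 0.09), or 1.49-fold, and its adjusted p of 0.167 (unadjusted p = 0.000453) was the smallest of the set. With a variance that follows the signal, the adjusted p was 0.0420, and over all settings tried it ran from 0.0225 to 0.9998. A second, dimmer Trem2 probe agreed in sign and was smaller, at 0.18 and 0.16 on the fl26 arrays (mean 0.17, SE 0.07). Tyrobp, the adaptor through which Trem2 signals, read 0.25 and 0.17 in fl26, 0.06 and 0.17 in svb9 and -0.11 and 0.06 in old wild type. The fl26 mean of Tyrobp was 0.21 (SE 0.08, adjusted p = 0.462), and its lower fl26 array was level with the higher svb9 array. The Fc receptor genes, whose products bind antibody-coated targets, had fl26 means from 0.09 for Fcgr2b to 0.20 for Fcgr3. Fcer1g, a signalling chain used by some of these receptors, had 0.18. All 6 genes of this role were above 0 in fl26, with 3 at an unadjusted p under 0.05 and none past the test. Fcgr3 was unlike Trem2 in that its brightest probe read 0.12 to 0.24 on all 6 arrays, in every group alike. The red signal of that probe was not well above background on svb9 array 2 and old wild type array 1. A second, dimmer Fcgr3 probe read 0.05 and 0.11 in fl26, 0.11 and 0.13 in svb9 and 0.21 and -0.09 in old wild type.

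**Figure D2:**
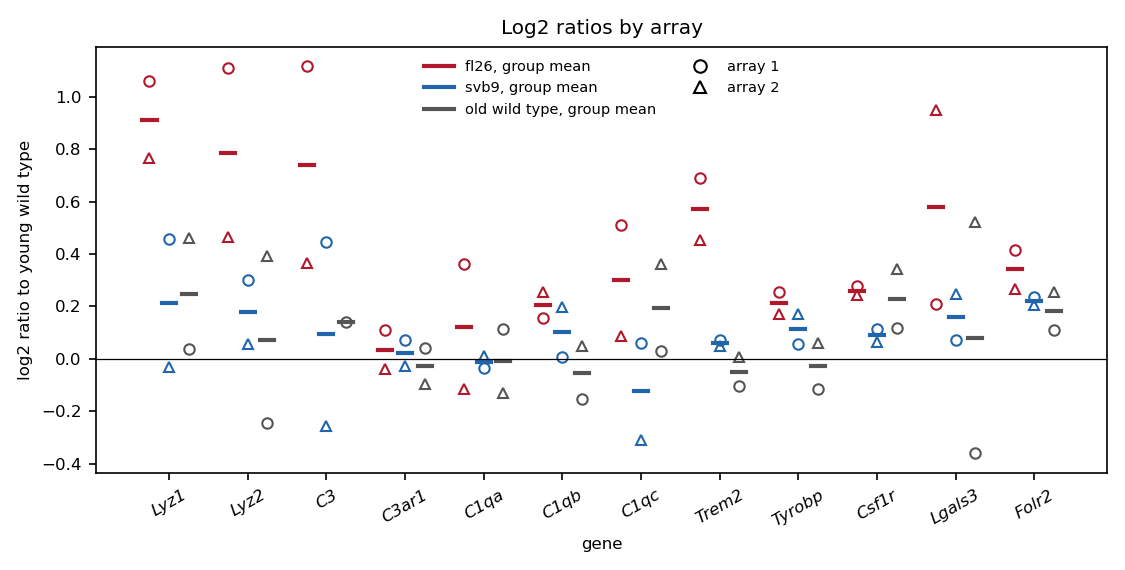
Log2 ratio to young wild type (vertical axis) for 12 genes (horizontal axis) on each array, with circles for array 1, triangles for array 2 and bars for the mean of a group (C3 in old wild type has 1 array). Lyz1, Lyz2, Trem2 and, by a little, Folr2 have both fl26 arrays above every other array. For C1qa the fl26 arrays lie on either side of 0.

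Csf1r, the receptor that keeps macrophages alive, read 0.28 and 0.24 on the fl26 arrays, 0.12 and 0.07 on the svb9 arrays and 0.12 and 0.34 on the old wild type arrays. It was above 0 on all 6 arrays, and the fl26 arrays lay between those of old wild type. Its fl26 mean was 0.26 (SE 0.08, adjusted p = 0.377). Its 2 dimmer probes went the other way in fl26, with means of -0.10 (SE 0.07) and -0.09 (SE 0.08), so that the probes of Csf1r disagree in sign. They did so in svb9 too, where the brightest probe had a mean of 0.09 and the dimmer probes of -0.07 and -0.03. In old wild type they also disagreed, and the dimmer probes had means of -0.10 and -0.04. The ligand gene Csf1 read 0.37 and -0.25 on the fl26 arrays, a mean of 0.06 (SE 0.15).

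Among the surface and pattern receptors, 8 of 9 tested genes had a mean above 0 in fl26, with a median of 0.17 and a range from -0.02 to 0.58. Lgals3 encodes galectin-3, a sugar-binding protein of macrophages and epithelia. It read 0.21 and 0.95 in fl26, 0.07 and 0.25 in svb9 and -0.36 and 0.52 in old wild type. It was the one gene of the set with a far higher value on fl26 array 2 than on array 1, and its fl26 arrays, with a mean of 0.58 (SE 0.24, adjusted p = 0.496), overlapped those of svb9 and of old wild type. Folr2, the folate receptor of resident macrophages, read 0.42 and 0.27 in fl26, 0.24 and 0.21 in svb9 and 0.11 and 0.25 in old wild type. All 6 of its values were above 0, and both fl26 arrays lay above every other array, array 2 only by a little. The fl26 mean of Folr2 was 0.34 (SE 0.08, unadjusted p = 0.00470, adjusted p = 0.296). Other surface markers were unequal. Cd14, a co-receptor for bacterial lipopolysaccharide, read 0.48 and 0.02 on the fl26 arrays, and Marco read 0.09 and 0.24. Adgre1, an adhesion receptor widely used to mark mouse macrophages, read 0.67 and -0.13 on the fl26 arrays. The haemoglobin scavenger receptor Cd163 read 0.50 and -0.20, and the mannose receptor Mrc1 read 0.47 and -0.12. Cd68, a lysosomal glycoprotein of macrophages, read 0.10 and -0.14. In Adgre1, Cd163, Mrc1 and Cd68 the 2 fl26 arrays were on opposite sides of 0. Cd163 and Cd68 were not well above background in red on fl26 array 2.

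A further group holds genes of leukocytes at large, with the myeloid genes Aif1 and Itgam among them. Of 8 tested, 6 had a mean above 0 in fl26, with a median of 0.08 and a range from -0.16 for the actin-bundling gene Lcp1 to 0.17 for the actin-binding gene Coro1a, and none had an unadjusted p under 0.05. A second, dimmer probe of Lcp1 had the opposite sign in fl26, with a mean of 0.10 (SE 0.13). Ptprc, which encodes the pan-leukocyte marker CD45, read 0.33 and -0.10 in fl26. Ctss (a lysosomal protease) and the oxidase subunits Cyba and Cybb had fl26 means of 0.13, -0.03 and 0.06. Aif1 had 2 tested probes with fl26 means of 0.11 (SE 0.09) and, on the dimmer probe, 0.23 (SE 0.09).

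**Figure D3:**
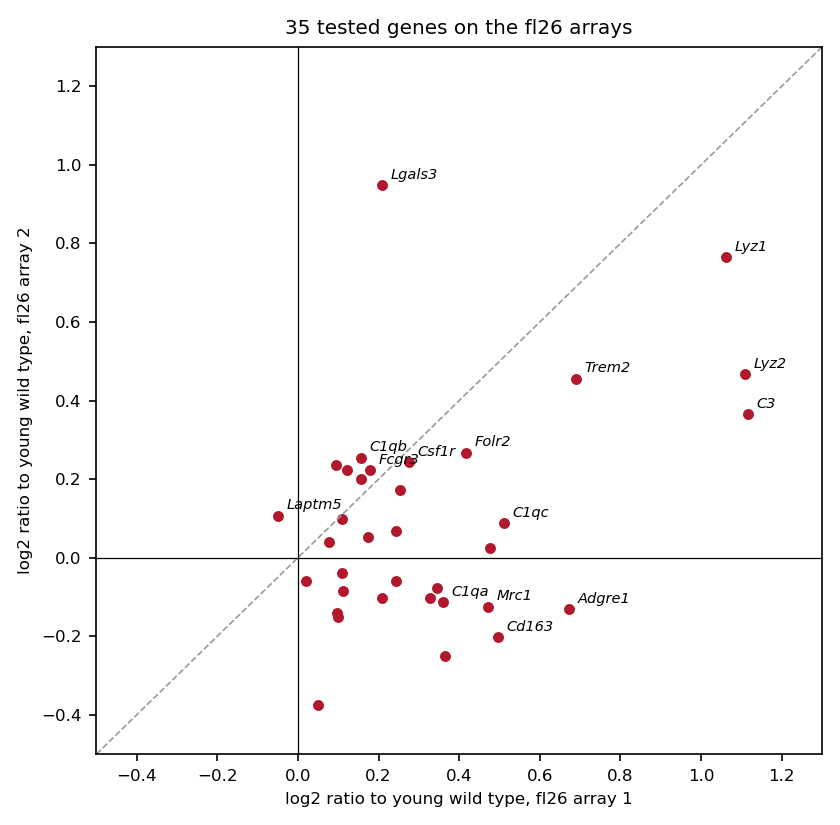
Log2 ratio to young wild type of the 35 tested genes on fl26 array 1 (horizontal) against fl26 array 2 (vertical), with equal values on the dashed line. Of the 35 genes, 28 were higher on array 1 than on array 2, and Lyz1, Lyz2, C3, Trem2 and Lgals3 stand apart at the upper right or top.

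Markers of some other cell types were also higher on fl26 array 1 than on array 2. The 12 fibroblast markers had a median of 0.74 on fl26 array 1, all above 0, and of -0.12 on array 2, with 4 above 0. Their summed linear signal was 9653.7 in red and 6833.5 in green on array 1, and 7561.8 in red and 8295.1 in green on array 2. In red it was 7446.0 and 8161.8 on the svb9 arrays and 10505.0 and 5499.7 on the old wild type arrays, where 9 and 2 of the 12 were not well above background. Endothelial markers had medians of 0.23 and -0.11 on the fl26 arrays, basal epithelial markers 0.36 and 0.10, smooth muscle markers 0.13 and -0.12, and luminal epithelial markers -0.18 and 0.08. On fl26 array 1 the medians of fibroblast, endothelial, smooth muscle and basal epithelial markers were thus above 0. That of luminal epithelial markers was below 0. Smooth muscle markers also had medians of 0.18 and 0.14 on the svb9 arrays. What part such shifts had in the values of the set was not tested. On fl26 array 2, 20 of the 35 genes of the set were above 0. Markers of the other leukocytes were nearer 0 in fl26. Medians were 0.03 for T and NK cell markers (12 tested), 0.02 for B and plasma cell markers (6 tested) and 0.01 for neutrophil markers (3 tested). They were 0.04 for dendritic cell markers (6 tested) and 0.04 for mast cell markers (6 tested, the highest at 0.71). On fl26 array 2 the red signal of 8, 4, 3, 4 and 4 of these genes, in the same order, was not well above background. Their ratios there are those of a dim channel, so that values near 0 do not show unchanged levels. Erythrocyte genes (6 tested) had a median of 0.15 in fl26, with 0.14 and 0.19 on arrays 1 and 2, close to the median of the set, and 3 of them had an unadjusted p under 0.05. No gene of any of these lists passed the test against young wild type in any group.

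**Figure D4:**
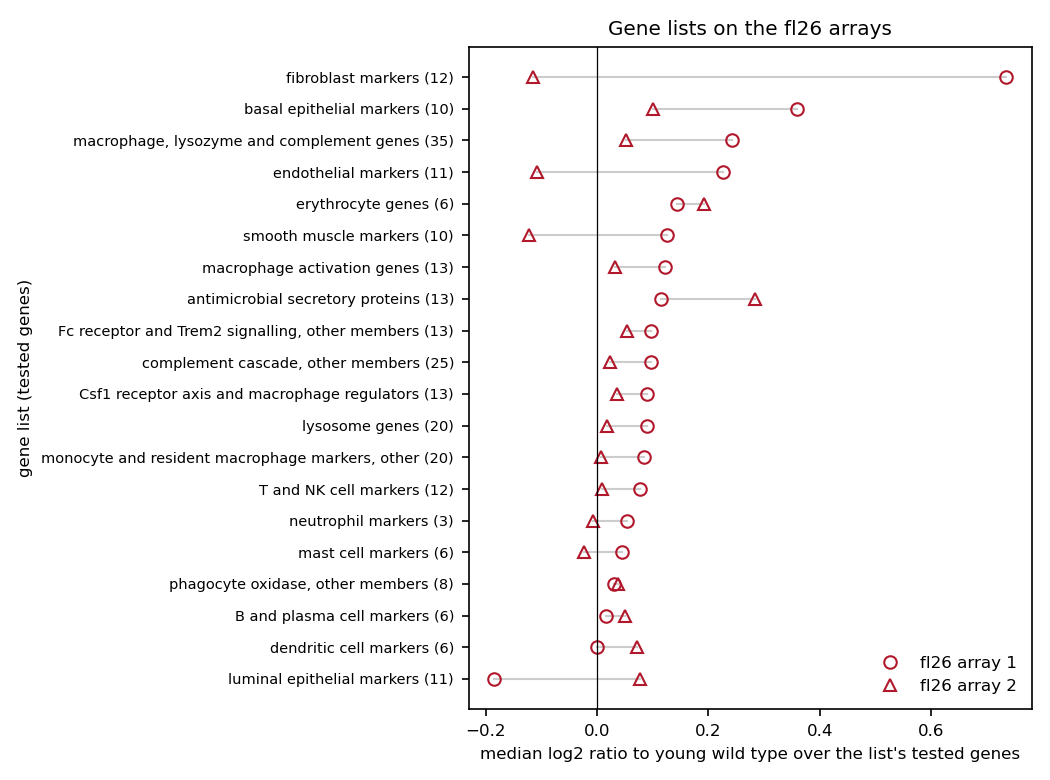
Median log2 ratio to young wild type over the tested genes of each list (number in parentheses) on fl26 array 1 (circles) and array 2 (triangles). Fibroblast markers are at 0.74 and -0.12, whereas the macrophage, lysozyme and complement genes are at 0.24 and 0.05.

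Wider lists from the same pathways gave single genes with ratios as high as Trem2 and no gene past the test. Of 20 further monocyte and resident macrophage markers tested, 14 had a mean above 0 in fl26, with a median of 0.06. Clec10a, a lectin of tissue macrophages and dendritic cells, read 1.12 and 0.84 on the fl26 arrays, 0.49 and 0.42 on the svb9 arrays and 0.11 and 0.49 on the old wild type arrays (fl26 mean 0.98, SE 0.12, adjusted p = 0.111). Lyve1, a hyaluronan receptor of lymphatic vessels and some resident macrophages, read 1.02 and 0.57 in fl26 (mean 0.80, SE 0.18, adjusted p = 0.273). Of 13 macrophage activation genes tested, 10 were above 0, with a median of 0.08. Among these Retnla, an alternative-activation gene, read 0.79 and 0.75 in fl26 and 0.22 and 0.19 in svb9 (fl26 mean 0.77, SE 0.07, adjusted p = 0.106), and Apoe, a lipid carrier, read 0.47 and 0.83. Of 13 Csf1-axis and macrophage regulator genes tested, 8 were above 0, with a median of 0.05. The transcription factor gene Cebpb (0.49 and 0.66) had the highest ratio of that list, with an adjusted p of 0.232. These genes were named as those with the largest ratio of their list in fl26.

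The rest of the complement cascade did not share a direction. Of 25 tested genes, 14 had a mean above 0 in fl26, with a median of 0.03 and none past the test. The ficolin gene Fcna, a recognition molecule made by macrophages, read 0.69 and 0.43 in fl26, but also 0.30 and 0.52 in svb9 and 0.31 and 0.72 in old wild type. Cd55, which protects cells from complement, had a mean of 0.46 (SE 0.11, adjusted p = 0.300). Mbl1, a mannose-binding lectin, had -0.39 (SE 0.10, adjusted p = 0.308), from a probe that was not well above background in red on any array. Of 13 further genes of Fc receptor and Trem2 signalling, 10 were above 0, with a median of 0.09. These included Inpp5d (0.34 and 0.31), a phosphatase that restrains such signalling. Of 8 further phagocyte oxidase genes 4 were above 0, with a median of 0.00, and of 20 lysosome genes 13, with a median of 0.08. Lysozyme is also a secreted antimicrobial protein of glandular epithelia. Of 13 other antimicrobial secretory proteins tested, 12 were above 0 in fl26, with a median of 0.13 and medians of 0.12 and 0.28 on arrays 1 and 2, and none passed the test.

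In the svb9 prostate the set read close to the young wild type. On svb9 array 2 the red signal of 18 of the 35 genes was not well above background, so that their ratios there are those of a dim channel. Of the 35 genes, 21 had a mean above 0, against 49.8% of all genes, with a median of 0.02 (range -0.13 to 0.22). None passed an adjusted p of 0.05, nor did any of the 15404 genes (0%), and 1 gene had an unadjusted p under 0.05, against 5.40% of all genes. That gene was Folr2, with a mean of 0.22 (SE 0.08, adjusted p = 0.980). The other genes above 0 on both arrays with the largest means were Lyz2 (0.18, SE 0.20), Lgals3 (0.16, SE 0.24) and Fcgr3 (0.16, SE 0.07). Below 0 on both arrays were Lcp1 at -0.11 and -0.14, Fcer1g at -0.01 and -0.22, Aif1 at -0.13 and -0.03, Ptprc at -0.05 and -0.10, and Cybb at -0.05 and -0.03. A dimmer Fcer1g probe had a mean of 0.05, the opposite sign. The median of the set was -0.03 with Feature Extraction's ratios and -0.02 with the extraction date as a block, so that its sign turned under both. Above 0 on both arrays were 14 genes, against 28.8% of all genes, and below 0 on both 5, against 27.6%. The svb9 arrays differed like the fl26 arrays: 28 of 35 genes were above 0 on array 1 (median 0.06) and 16 on array 2 (median -0.03).

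In the old wild type prostate, 21 of the 35 genes had a mean above 0, against 44.0% of all genes, with a median of 0.02 against -0.02 over all genes. None passed an adjusted p of 0.05, nor did any of 15249 genes (0%), and 3 genes had an unadjusted p under 0.05, against 13.0% of all genes. The red signal of 19 of the 35 was not well above background on either array, so that their ratios are those of a dim channel. The 3 genes were Csf1r at 0.12 and 0.34 (mean 0.23, SE 0.08, adjusted p = 0.378), Marco, a scavenger receptor, at 0.14 and 0.29 (mean 0.21, SE 0.08, adjusted p = 0.399), and Fcgr3 (mean 0.18, SE 0.07, adjusted p = 0.421). Each of them was well above background in red on 1 of the 2 arrays. Lyz1 had a mean of 0.25 (SE 0.16) and Aif1 of 0.20 (SE 0.09). Above 0 on both arrays were 10 genes, against 22.7% of all genes, and below 0 on both 3, against 31.9%. These 3 were Fcer1g, Mrc1 and Laptm5. Fcer1g read -0.05 and -0.16, Mrc1 -0.04 and -0.10, and Laptm5 -0.09 and -0.03. With arrays centred on their median in place of loess, the median over all genes in old wild type was -0.66 and that of the set -0.31, so that the sign of the set's median turned while it stayed above that of all genes.

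**Figure D5:**
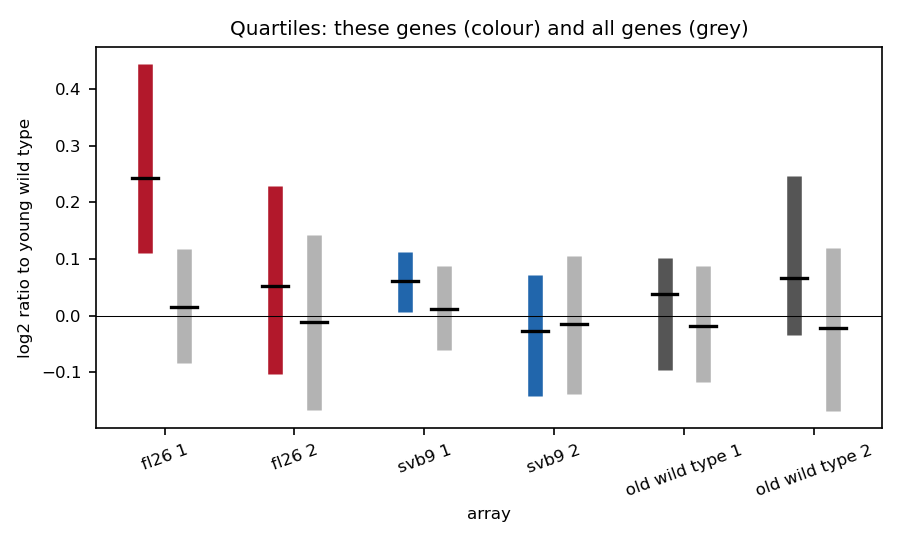
Interquartile range of the log2 ratios to young wild type (bars from the lower to the upper quartile, black line at the median) on each array, for the tested macrophage, lysozyme and complement genes (left bar of each pair, red, blue or dark grey) and for all genes tested (right bar, light grey). On fl26 array 1 the median of the set is 0.24 and that of all genes 0.01, and on the other arrays the bars overlap more.

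Between the 2 transgenic lines, both in red and so free of the dye, Trem2 and Lyz1 differed most in proportion to their error. Of the 35 genes, 30 were higher in fl26 than in svb9, against 51.7% of all genes, with a median difference of 0.12 log2. Without fl26 array 1 it was 20 of 35, with a median of 0.03. None passed an adjusted p of 0.05, nor did any of all genes (0%), and 3 had an unadjusted p under 0.05, against 2.68% of all genes. These were Trem2 (0.51, SE 0.12, unadjusted p = 0.00492), Lyz1 (0.70, SE 0.22, unadjusted p = 0.0188) and Fcer1g (0.29, SE 0.12, unadjusted p = 0.0442), each with an adjusted p of 1. Trem2 was well above background in red on only 1 of the svb9 arrays. Both fl26 arrays lay above both svb9 arrays for 10 genes, against 12.5% of all genes, and below for 1, against 11.4%. Array 1 of both lines was extracted from its image on the same date, which allows a comparison within it: there 32 of 35 genes were higher in fl26, with a median difference of 0.20, against 51.7% and 0.01 over all genes. On that date Lyz2 differed by 0.81, C3 by 0.67, Trem2 by 0.62 and Lyz1 by 0.60.

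Old wild type was lower than fl26 in 29 of the 35 genes, whereas 45.3% of all genes were higher. The median difference was -0.09, against -0.02 over all genes. Without fl26 array 1 this turned, with 19 of 35 genes higher in old wild type and a median of 0.01. None passed the test in the set or among all genes (0%), 3 had an unadjusted p under 0.05, against 9.11% of all genes, and both old wild type arrays lay below both fl26 arrays for 9 genes, against 16.7%, and above for 1, against 14.3%. Lyz2 differed by -0.72 (SE 0.28), Lyz1 by -0.67 (SE 0.22) and Trem2 by -0.62 (SE 0.12, adjusted p = 0.470). Trem2 was not well above background in red on either old wild type array, and its level there was at least 1.13-fold lower than in fl26. With median centring the difference of the set was -0.69 and that of all genes -0.89, so that relative to all genes its direction turned. On the date shared by fl26 array 2 and old wild type array 1, 15 of 35 genes were higher in old wild type, against 51.5% of all genes, and the median difference was -0.06. On that old wild type array 33 of the 35 genes were not well above background in red, so that this count and median rest on a dim channel. On the same date Lyz2 differed by -0.71, while Lyz1, Trem2 and Lgals3, which are among those 33, are given no difference. Old wild type and svb9 differed little: 22 of 35 genes were higher in old wild type, against 46.1% of all genes, with a median of 0.03. No gene passed the test (0% of all genes) and none had an unadjusted p under 0.05, against 5.42%. Both old wild type arrays lay above both svb9 arrays for 5 genes, against 14.0%, and below for 1, against 16.5%. On the date they shared, 24 of 34 genes were higher in old wild type, against 50.6% of all genes, with a median difference of 0.09. In red, 19 of the 35 genes on that old wild type array and 18 on that svb9 array were not well above background.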

How the data were processed

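RNA of ventral prostate pools was hybridised to 6 two-colour whole mouse genome arrays. Per the file headers, Agilent Feature Extraction A.7.5.1 read the scans. The deposited intensities (mean of each spot, median of its background) are not normalized. The deposited log10 ratios were background-subtracted and dye-normalized by that software, per the file headers, and served as an alternative. Flags for signal well above background, saturation and outliers come from the same deposited files.

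In R 4.3.3 with limma 3.58.1, background was corrected by normexp (offset 50) and each array was normalized by loess. Control spots (2256 of 43790) and outlier spots were left out, and replicate spots were averaged to log2 ratios of 41174 probes. Tested were the 27860 probes with 1 channel well above background on both arrays of any group. A model of 3 group means over all 6 arrays gave 6 comparisons, 2-sided, with Benjamini-Hochberg adjustment over all tested probes at 0.05. Where arrays share a young wild type pool, testing a ratio against 0 does not take in how such pools vary. Standard errors rest on a spread pooled over the arrays and moderated across probes. The fit was tested on simulated data.

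Arrays carry 3 image extraction dates in their headers: the first holds array 1 of fl26 and svb9, the second fl26 array 2 and old wild type array 1, the third svb9 array 2 and old wild type array 2. Named individually are the lysozyme, complement, Trem2, Tyrobp and Csf1r genes, and in each comparison with young wild type up to 4 genes above and up to 4 below 0 with the largest ratio among those with 1 sign on both arrays. For each further list, up to 4 genes with the largest ratio in fl26 could be named. Some genes of these lists are not reported here. Other genes given with values (such as Adgre1, Cd163, Mrc1, Cd68, Csf1 and Ptprc) were chosen after their values were seen. The genes and lists were chosen with earlier results of these data known. Only 6 arrays limit the precision. Alternatives changed the background correction, normalization, filters, probe choice, variance model, blocks and the arrays used.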

Additional observations from a re-analysis of the deposited data

How the results depend on the processing

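No gene of the set passed the test in any of the 6 comparisons. Of 985 values under alternative settings, 925 stayed within their limits. A gene had to keep its sign and its side of the threshold, and a count of genes called its value. A median had to keep its sign and move by less than the spread between arrays. Many settings could not move a value. The fl26 median stayed at 0.16 with a variance trend and without svb9 array 1, for example. The count of 925 therefore does not measure how firm the results are. In fl26 against young wild type, a variance trend called 1 gene (Trem2, adjusted p = 0.0420) among 63 probes over the array, and the extraction date as a block called 1 (Lyz2, adjusted p = 0.0419) among 121, against 14 in the model as described. The labels number the arrays of every group 1 and 2 without calling this a pairing. Deviations of same-numbered arrays from their group means correlated at 0.609 (fl26 with svb9), 0.331 (fl26 with old wild type) and 0.167 (svb9 with old wild type). With this replicate block, 3 genes passed in fl26 (C3, adjusted p = 0.0152, Trem2, 0.0225, and Lyz1, 0.0285), while 1001 probes passed over the array. Why these settings call more was not tested.

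The median of the set under median centring was 0.36 for fl26, 0.096 for svb9, -0.31 for old wild type, 0.27 for fl26 against svb9, -0.69 for old wild type against fl26 and -0.42 for old wild type against svb9. This centring moved the median over all genes to 0.14, 0.02, -0.66, 0.13, -0.89 and -0.73 in the same order. With the extraction date as a block the median was 0.069 in old wild type and 0.11 for old wild type against svb9. Of 108 medians 7 turned sign, among them svb9 at -0.033 with Feature Extraction's ratios and at -0.019 with the date as a block. When each array was left out in turn, the median ran from 0.053 (without fl26 array 1) to 0.24 in fl26, from -0.027 (without its array 1) to 0.062 in svb9, and from 0.025 to 0.067 (without its array 1) in old wild type. It ran from 0.03 to 0.20 for fl26 against svb9, from -0.21 to 0.013 (without fl26 array 1) for old wild type against fl26, and from -0.043 (without svb9 array 2) to 0.0499 for old wild type against svb9.

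Of 769 values of named genes, 38 turned sign, all of them short of the threshold. Under median centring, C3ar1 turned to -0.005 in fl26 and to -0.063 in svb9, C1qa turned to 0.10 in svb9, and in old wild type C3ar1 turned to 0.13, Lyz1 to -1.03, Lyz2 to -2.31, C3 to -2.71, C1qc to -0.95, Csf1r to -0.47, Marco to -0.15 and Aif1 to -0.39. With the extraction date as a block, C3ar1 turned to -0.0045 in fl26 and 0.013 in old wild type, Lyz2 to -0.034 and C3 to -0.039 in svb9, and C1qa to 0.063 and Mrc1 to 0.088 in old wild type. Feature Extraction's ratios turned C3ar1 to -0.033 in svb9 and Trem2 to 0.039 in old wild type. Without background correction, C3ar1 turned to 0.014, C1qa to 0.0043 and Trem2 to 0.059 in old wild type. The mean of all probes turned Csf1r to -0.0026 in svb9, keeping outlier spots turned Lyz2 to -0.081 in old wild type, and the replicate block turned C3 to -0.22 in old wild type. The cause was not tested.

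With 1 array left out, values that turned sign ranged in fl26 from -0.039 to 0.11 for C3ar1 and -0.11 to 0.36 for C1qa. In svb9 they ranged from -0.033 to 0.46 for Lyz1, -0.26 to 0.45 for C3, -0.027 to 0.072 for C3ar1, -0.037 to 0.011 for C1qa and -0.31 to 0.062 for C1qc. In old wild type they ranged from -0.25 to 0.39 for Lyz2, -0.097 to 0.040 for C3ar1, -0.13 to 0.11 for C1qa, -0.16 to 0.047 for C1qb, -0.11 to 0.0080 for Trem2 and -0.11 to 0.061 for Tyrobp. Low red signal limits the old wild type values, since 22 of the 38 genes were not well above background on either of its arrays.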
